A study of Mus musculus with 2 samples.

Results

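Matrix metalloproteases (Mmp genes), the secreted ADAMTS proteases with their catalytically inactive ADAMTS-like relatives, and the tissue inhibitors of metalloproteases (Timp genes) were examined in RNA labelled as primary mouse keratinocytes. Members were all genes whose symbol is Mmp, Timp, Adamts or Adamtsl followed by a number and for which the array holds a probe with a matching RefSeq accession. Of 51 such genes in the RefSeq gene table, 49 had a probe, out of 20144 genes named on the array in all. Mmp27 and Adamtsl5 had no matched probe and were not analysed here. The study compared a Rac3-KO sample, which its labels name as the control, with a Rac1/Rac3-DKO sample. Both therefore lack Rac3 per the labels, and they differ in the labelled loss of Rac1, a small GTPase that controls the actin cytoskeleton. The labels describe both as P3 primary keratinocytes and give neither the deletion alleles nor a Cre driver. Each genotype had 1 array, so there was no replicate, no test between genotypes was possible, and precision is limited by having so few arrays.

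Metalloproteases of these families use a catalytic zinc ion to cut collagens, proteoglycans and other proteins of the extracellular matrix. MMPs are made as inactive precursors, and TIMPs bind the active site of the mature enzymes and block it. In skin most of these enzymes are made by dermal fibroblasts, leukocytes and vessel cells, while keratinocytes switch on a smaller set, mainly at wound edges.

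Levels are log2 processed signals minus the 75th percentile of the array, and a difference is the level on the array labelled Rac1/Rac3-DKO minus the level on the Rac3-KO array. A gene was called measured when the scanner software marked its probe as well above background on both arrays. Of 55678 probes, 56.9% carried that mark on the Rac3-KO array, against 52.9% with the DKO label, and the 75th percentile of the processed signal was 705 and 354. Probes of the deleted genes did not bear out the labels, so the arrays are named by label only. Rac3 gave processed signals of 99.8 and 59.1 and passed background on both, and the Rac1 probes gave differences of 0.28 and -0.12. A probe outside the deleted part would check nothing, and where these probes lie was not examined. Markers of other cell types were present on both arrays, which goes against the label of a keratinocyte sample. All 15 keratinocyte markers were lower on the DKO-labelled array, with a median difference of -1.67 and a summed scaled signal (in units of the array's 75th percentile) of 1215 on the Rac3-KO and 369.7 on the DKO-labelled array. All 11 skeletal muscle markers were at least 2-fold higher, with a median of 2.60 and sums of 391.9 and 2092. Of 12 fibroblast markers 11 had a difference above 0, with a median of 0.70 and sums of 1627 and 2820. All 9 macrophage markers with a probe were above 0, with a median of 1.31 and sums of 46.9 and 118.6. All 8 endothelial markers were above 0 too, with a median of 0.61 and sums of 19.8 and 37.97. In bulk RNA, fewer cells of a type and less RNA per cell cannot be told apart.

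Members were more often higher than lower on the DKO-labelled array relative to the 75th percentile, a direction that turns on the spike-in scale. Of the 49 members with a probe, 31 were measured, 2 passed background only on the Rac3-KO array, 1 only on the DKO-labelled array and 15 on neither. Over all named genes 70.2% were measured, 4.26% were seen only on the Rac3-KO array, 1.14% only on the DKO-labelled array and 24.3% on neither. Of the 31 measured members, 9 (29.0%) were higher by 2-fold or more on the DKO-labelled array, against 7.71% of the 14145 measured genes. The other direction held 2 members (6.45%) at least 2-fold lower, against 6.62% of all measured genes, a share near the background. In either direction 14.3% of all measured genes were 2-fold apart, beside 11 of the 31 members. The median difference was 0.44 over the measured members and -0.008 over all measured genes. Scaling to the array median instead changed the share of higher genes among all genes past 2-fold from 53.8% to 43.6%. On that scale 7 members (22.6%) were higher and 2 (6.45%) lower, against 6.3% and 8.14% of all measured genes. Spike-in RNAs differed by 1.08 and the 75th percentile by -0.99 before scaling. On the spike-in scale all differences therefore move by -2.07, 0 members were higher by 2-fold and 24 (77.4%) lower, against 0.099% and 93.3% of all measured genes, so every direction in the text is relative to the 75th percentile. By family, 3 of 4 TIMPs, 2 of 9 MMPs, 3 of 15 ADAMTS proteases and 1 of 3 ADAMTS-like genes that were measured were at least 2-fold higher, and both lower members, Adamts4 and Adamts17, were ADAMTS proteases.

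**Figure D1:**
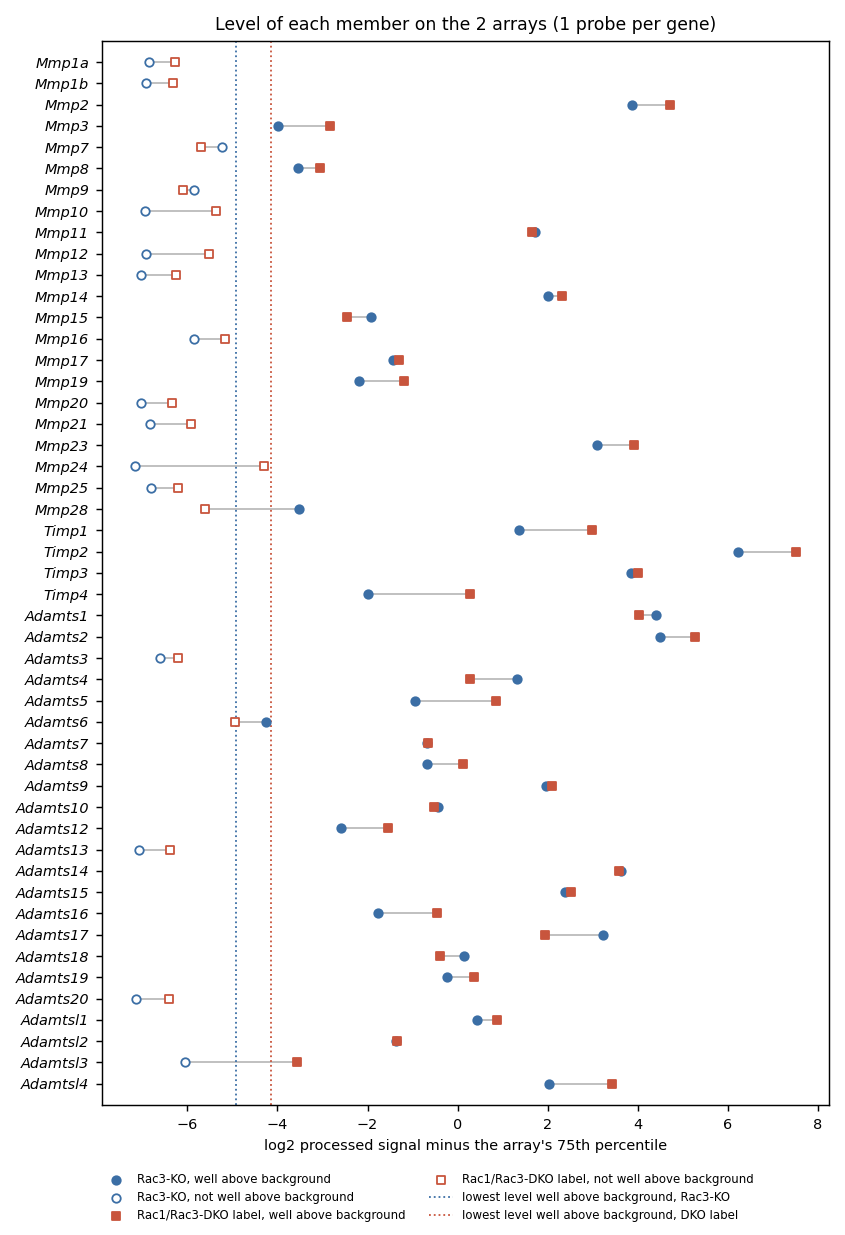
Level of each of the 49 members on the 2 arrays, as the log2 processed signal minus the array's 75th percentile (x axis), with filled symbols where the probe was well above background and open symbols where it was not. Dotted lines mark the lowest level that passed background, -4.91 on the Rac3-KO and -4.14 on the DKO-labelled array. Each point of the 15 members seen on neither array lies left of the line of its own array.

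The TIMPs, the inhibitors of the group, were higher on the DKO-labelled array for 3 of 4 genes, most of all Timp4, although on the spike-in scale only Timp4 stayed above 0. Timp4, an inhibitor known from heart, skeletal muscle and fat, had a processed signal of 176.2 on the Rac3-KO and 428.1 on the DKO-labelled array. This is a difference of 2.27, or 4.83-fold, where the scanner software puts the error of the signal at 0.21. Timp1, an inducible inhibitor that is released by fibroblasts and activated leukocytes, had signals of 1814 and 2802. Its difference was 1.62 with an error of 0.20, or 3.07-fold. Timp2 blocks MMPs and also helps MMP14 to activate the MMP2 precursor at the cell surface. Its brighter probe had signals of 52536 and 64976, a difference of 1.30 with an error of 0.20 (2.46-fold), and its dimmer probe gave 1.26. Timp3 stood apart from these. It is bound to the matrix and also inhibits ADAMTS and ADAM proteases, and with signals of 10188 and 5645 it differed by 0.14, less than its error of 0.20. The differences of Timp1, Timp2 and Timp4 stayed past 2-fold in 11 of 11 other ways of processing, with ranges of 1.93 to 2.27 for Timp4, 1.498 to 1.626 for Timp1 and 1.20 to 1.37 for Timp2. Timp1 and Timp4 have 1 probe of 1 spot each. For these genes the filters, the mean or median over probes, kept outlier spots and the deposited values could change little or nothing. Only another background correction (normexp) and the 4 other scalings could move them. On the spike-in scale Timp4 gave 0.20, while Timp1, Timp2 and Timp3 turned to -0.45, -0.77 and -1.93. Muscle, macrophage and fibroblast markers were higher on the same array by medians of 2.60, 1.31 and 0.70. Adipocyte, endothelial, and pericyte and smooth muscle markers were higher too, by medians of 0.57, 0.61 and 0.68. Keratinocyte, cartilage and bone, and Schwann cell markers had medians below 0. The part of these cell types in the TIMP differences was not tested.

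The 4 Timp promoters are shown because 3 of these genes were higher together and Timp3 was within 2-fold. Of the 51 members, 36 had a promoter window in the RefSeq table. Those of the Timp genes are the 200 bases before the annotated start, from RefSeq on GRCm38.p6, at chrX:20869966-20870165 (+ strand), chr11:118355412-118355611 (- strand), chr6:115252206-115252405 (- strand) and chr10:86300212-86300411 (+ strand). Capitals mark GGGCGG (or CCGCCC on the other strand), a GC box, and CAGCTG, an E-box that reads the same on both strands.
Timp1: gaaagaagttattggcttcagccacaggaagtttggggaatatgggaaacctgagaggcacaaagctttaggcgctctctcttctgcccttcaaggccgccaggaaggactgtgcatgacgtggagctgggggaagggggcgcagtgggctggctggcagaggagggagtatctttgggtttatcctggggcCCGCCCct
Timp2: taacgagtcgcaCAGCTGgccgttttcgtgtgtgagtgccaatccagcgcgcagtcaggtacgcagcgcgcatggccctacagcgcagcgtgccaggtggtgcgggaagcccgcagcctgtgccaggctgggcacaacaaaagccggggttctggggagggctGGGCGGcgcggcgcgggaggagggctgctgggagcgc
Timp4: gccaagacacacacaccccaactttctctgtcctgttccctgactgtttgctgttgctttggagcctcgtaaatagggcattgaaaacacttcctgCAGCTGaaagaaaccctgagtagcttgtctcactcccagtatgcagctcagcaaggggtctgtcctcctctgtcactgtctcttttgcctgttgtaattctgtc
Timp3: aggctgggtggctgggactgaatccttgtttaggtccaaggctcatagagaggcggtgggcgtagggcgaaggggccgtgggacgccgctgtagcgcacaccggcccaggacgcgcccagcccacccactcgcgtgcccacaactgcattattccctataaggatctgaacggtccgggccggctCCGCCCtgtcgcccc
The GC box was present before Timp1, Timp2 and Timp3 and the E-box before Timp2 and Timp4, so neither separated the higher genes from Timp3. Of 32851 RefSeq windows of 250 bases, 32.7% held the GC box and 13.0% the E-box. In the gene table Timp1, Timp4 and Timp3 overlap the synapsin genes Syn1, Syn2 and Syn3, and Timp2 overlaps Cep295nl. Syn1 differed by 1.05 at signals of 52.3 and 54.5, and Syn2 by 0.82 at signals of 189.6 and 168.3. Syn3 was below background on both arrays. Cep295nl differed by 0.93 at signals of 81.5 and 77.8. Whether a probe reads both genes of a pair was not examined.

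The inducible MMPs of chromosome 9 were mostly not well above background on either array. The 10 genes Mmp13, Mmp12, Mmp1b, Mmp3, Mmp1a, Mmp10, Mmp8, Mmp27, Mmp20 and Mmp7 lie next to each other there, with 0 other protein-coding genes between them in the RefSeq table. They include the interstitial collagenases, the stromelysins Mmp3 and Mmp10, the matrilysin Mmp7, the macrophage metalloelastase Mmp12 and the enamel protease Mmp20. Of the 9 with a probe, 7 were not well above background on either array and only Mmp3 and Mmp8 were measured. Over all named genes these shares were 24.3% and 70.2%. Of the 13 Mmp genes elsewhere, 7 were measured, 1 was seen on the Rac3-KO array only and 5 on neither.

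The stretches before these genes are shown because most of these genes share a motif that was absent from the windows of the 26 other members that had one. They are the 120 bases before the annotated start on GRCm38.p6, from RefSeq, at chr9:7445702-7445821, chr9:7502222-7502341, chr9:7272394-7272513, chr9:7464021-7464140, chr9:7388027-7388146, chr9:7691970-7692089, chr9:7628111-7628230, chr9:7347254-7347373 and chr9:7558309-7558428, in the order printed. Mmp1b lies on the - strand and the others on the + strand. Capitals mark TGANTCA, with N any base, and TATAAA, the TATA box (searched on both strands, with no overlap between the motifs here). TGANTCA is a looser form of the AP-1 site, in which N is C or G. The match before Mmp20 has A there and fits only the looser form.
Mmp3: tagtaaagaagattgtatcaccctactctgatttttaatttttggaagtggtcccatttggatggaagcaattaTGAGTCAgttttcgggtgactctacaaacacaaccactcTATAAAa
Mmp10: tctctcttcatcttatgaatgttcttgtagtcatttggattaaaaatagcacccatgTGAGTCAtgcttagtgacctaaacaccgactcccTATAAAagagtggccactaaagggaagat
Mmp13: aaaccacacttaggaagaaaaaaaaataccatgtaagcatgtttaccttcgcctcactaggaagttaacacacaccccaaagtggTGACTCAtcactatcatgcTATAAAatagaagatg
Mmp1a: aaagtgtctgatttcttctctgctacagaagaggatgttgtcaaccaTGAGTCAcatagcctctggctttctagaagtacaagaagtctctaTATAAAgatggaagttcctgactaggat
Mmp1b: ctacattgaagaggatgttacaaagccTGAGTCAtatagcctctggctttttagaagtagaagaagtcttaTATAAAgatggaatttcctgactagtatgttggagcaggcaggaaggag
Mmp7: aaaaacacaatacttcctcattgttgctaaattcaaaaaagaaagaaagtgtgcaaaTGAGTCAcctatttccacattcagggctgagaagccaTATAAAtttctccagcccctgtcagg
Mmp20: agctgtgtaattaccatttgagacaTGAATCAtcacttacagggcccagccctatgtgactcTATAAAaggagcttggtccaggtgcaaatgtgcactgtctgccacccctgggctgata
Mmp12: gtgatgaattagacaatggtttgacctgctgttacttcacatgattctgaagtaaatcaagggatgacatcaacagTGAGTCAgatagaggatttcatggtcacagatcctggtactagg
Mmp8: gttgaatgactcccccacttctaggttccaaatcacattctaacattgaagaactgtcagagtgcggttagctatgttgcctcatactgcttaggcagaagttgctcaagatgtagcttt
Within 250 bases before a start, TGANTCA was present for 8 of these 10 genes, against 0 of the 26 other members with a RefSeq window and 6.75% of all 32851 windows. Mmp8 and Mmp27 lacked it. The members without a window, among them Mmp2, Mmp9, Mmp16, Mmp17, Mmp19, Adamts4 and Adamts5, were not searched. Whether the motif is particular to the chromosome 9 genes is therefore not known here. For Mmp7 and Mmp12, which have 2 annotated starts each, the start whose window holds the motif is shown, and a gene was counted when any of its windows held a motif. TATAAA was present for 7 of the 10 genes, for 3 of the 26 other members (Adamts1, Adamtsl2 and Mmp21) and in 12.4% of all windows. The GC box was present for 0 of the 10 and for 20 of the 26. Over the 12 windows of the 10 genes the median G and C content was 40.2%, with a range of 37.2% to 53.2%, and the highest value belongs to the Mmp7 start that holds no motif. Over the 27 windows of the other members the median was 64.4%, with a range of 53.6% to 80.0%. A match describes the letters only. The motif did not separate the measured Mmp3 from Mmp10, Mmp13, Mmp1a, Mmp1b, Mmp7, Mmp20 and Mmp12, which were below background.

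Mmp3, stromelysin-1, cleaves proteoglycans and activates other MMP precursors. Its processed signals were 44.6 on the Rac3-KO and 50.1 on the DKO-labelled array, close to the lowest signals well above background of 23.4 and 20.1. Its difference was 1.16 with an error of 0.32 (2.23-fold), and normexp background correction reduced it to 0.76. Mmp8 is the collagenase stored by neutrophils. It had signals of 60.1 and 42.6 and differed by 0.49 with an error of 0.29. Of 12 neutrophil and myeloid precursor markers 9 were measured, with a median of 0.35 and sums of 132.2 and 168.2. Csf3r alone, at signals of 71195 and 40171, made up most of both sums. Of those 9, 6 were above 0, among them Elane at 0.88, and the granule genes Ltf, Ngp and Camp were at -0.50, -0.52 and -0.71. Mpo passed background only on the Rac3-KO array, and Prtn3 and Cxcr2 on neither. Their part in the Mmp8 difference was not tested. Mmp7 had signals of 18.7 and 6.86, and the 6 other cluster genes that were below background ranged from 4.41 to 8.61 over both arrays.

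The gelatinases, which cut denatured collagen and basement membrane collagen, differed in detection. Mmp2, the gelatinase of fibroblasts, had signals of 10345 and 9322 and differed by 0.84 with an error of 0.20 (1.79-fold). Fibroblast markers had a median of 0.70 on the same arrays, and their part in the difference was not tested. Mmp9, the gelatinase of leukocytes and wound keratinocytes, was spotted 10 times on each array. On the Rac3-KO array 1 spot was marked as an outlier with a signal of 141.2, and the 9 others ranged from 6.31 to 19.95 with a median of 14.0. At the outlier's position the DKO-labelled array gave 8.57. On the DKO-labelled array 1 spot was marked with 18.1, and the 9 others ranged from 4.10 to 8.57 with a median of 4.58. None of the 9 kept spots was well above background on either array, so no fold is given. The same repeat design shows how closely spots agree at a higher signal. The 10 spots of Adamts19 ranged from 578.7 to 647.0 on the Rac3-KO and from 410.5 to 496.3 on the DKO-labelled array, with log2 SDs of 0.05 and 0.08 (n = 10 spots of 1 array each), against 0.64 and 0.35 for Mmp9.

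**Figure D2:**
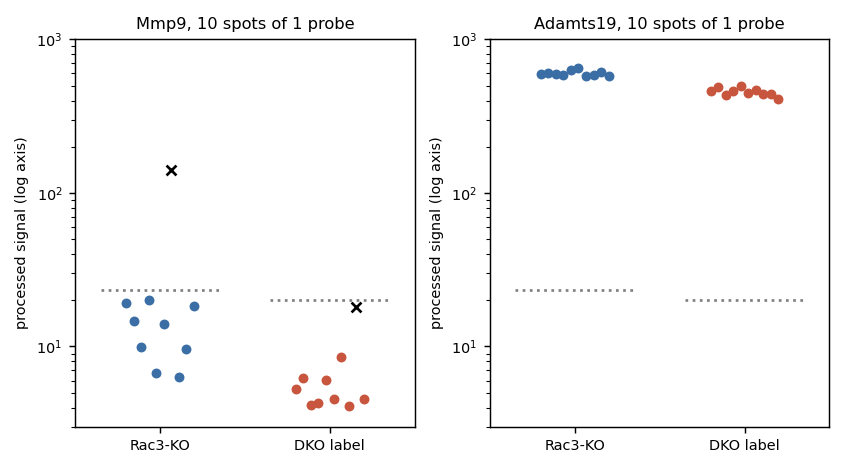
Processed signal (log axis) of the 10 repeated spots of the Mmp9 probe and of the Adamts19 probe on each array, with spots marked as outliers as crosses and the lowest signal well above background as dotted lines. The kept Mmp9 spots reach at most 19.95 on the Rac3-KO and 8.57 on the DKO-labelled array and 1 outlier stands at 141.2, whereas the lowest Adamts19 spot is at 410.5.

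The membrane-type MMPs, which act at the cell surface, stayed within 2-fold. Mmp14, the activator of the Mmp2 precursor, had signals of 2834 and 1774 and differed by 0.32 with an error of 0.20. Mmp15, a close relative of Mmp14, had signals of 185.6 and 64.4 and differed by -0.54 with an error of 0.23. With normexp that difference was -0.09. Mmp17, which is tethered by a lipid anchor, had signals of 262.5 and 144.6 and differed by 0.13. Mmp16, Mmp24 and Mmp25 were not well above background on either array.

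Among the remaining MMPs, Mmp19 was the only one at least 2-fold higher, at the edge of the threshold. Its signals were 154.8 and 156.5 and its difference was 1.01 with an error of 0.21. It was under 2-fold in 4 of 10 other ways of processing, with a range of 0.84 to 1.01. Mmp23, a membrane-bound enzyme without the usual hemopexin domain, had signals of 6042 and 5384 and differed by 0.83 (1.77-fold). Mmp11, known from fibroblasts of remodelling tissue, had signals of 2330 and 1108 at its brighter probe and differed by -0.08, against 0.11 at its dimmer probe. Mmp28, epilysin, an enzyme that keratinocytes make, passed background only on the Rac3-KO array. Its signals of 61.8 and 7.27, with an error of 0.97, gave a level lower by at least 1.55-fold on the DKO-labelled array. A further probe of the gene was not well above background on either. Keratinocyte markers were lower on that array by a median of -1.67, and their part in the Mmp28 difference was not tested. Mmp21, which acts in left-right patterning, was not well above background on either array.

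**Figure D3:**
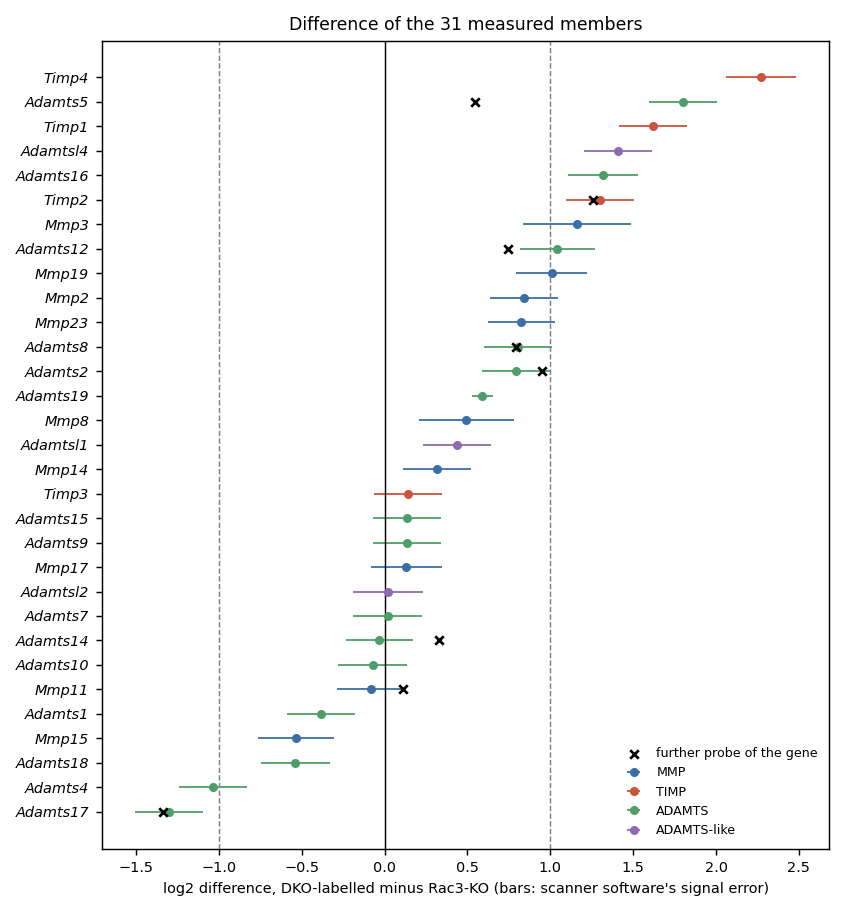
Difference of the 31 measured members (x axis, log2, DKO-labelled minus Rac3-KO array, scaled to the 75th percentiles), coloured by family, with the scanner software's signal error as bars and further probes of a gene as crosses. The dashed lines mark 2-fold. Timp4 lies highest at 2.27 and Adamts17 lowest at -1.30, and the probes of Adamts5 lie 1.25 apart; on the spike-in scale every point moves by -2.07.

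The ADAMTS proteases that cleave proteoglycans such as aggrecan and versican lay on both sides of 0. Adamts4 and Adamts5 are the main aggrecanases. Adamts4 had signals of 1757 on the Rac3-KO and 431.4 on the DKO-labelled array, a difference of -1.03 with an error of 0.20 (2.05-fold lower). With normexp this was -0.99, just inside 2-fold. The brighter Adamts5 probe had signals of 363.2 and 635.5 and a difference of 1.80 with an error of 0.20 (3.48-fold higher). Its dimmer probe, with signals of 291.8 and 214.6, differed by 0.55, so the probes disagree in size by 1.25 and agree in sign. Their mean was 1.17. This was the largest gap among the 8 members with several measured probes, whose median gap was 0.18, and the only gap of 1 or more. Adamts1, a versican-cleaving protease, had signals of 14881 and 5732 and differed by -0.38 with an error of 0.20. Adamts9, Adamts15 and Adamts8 are further proteoglycan-cleaving enzymes. Adamts9, with signals of 2734 and 1509, differed by 0.13. Adamts15, with signals of 3681 and 2035, differed by 0.14. The brighter Adamts8 probe had signals of 439.6 and 386.5 and differed by 0.81, and the dimmer probe gave 0.79. Adamts8 was thus the only one of these 3 beyond its signal error of 0.21. Adamts20, known for its role in melanoblast survival in mice, was not well above background on either array.

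The procollagen N-proteinases remove the amino-terminal propeptides of fibrillar collagens. Adamts2, the main enzyme of skin, had signals of 15758 and 13711 at its brighter probe and differed by 0.79 with an error of 0.20, and its dimmer probe gave 0.95. The fibrillar collagen genes Col1a1, Col1a2 and Col3a1, whose products it processes, differed by 1.01, 0.85 and 0.79 on the same arrays. These collagen genes are themselves in the fibroblast marker list, which had a median of 0.70. The part of fibroblasts in these differences was not tested. Adamts14 had signals of 8649 and 4257 at its brighter probe and differed by -0.03, against 0.33 at its dimmer probe. Adamts3 was not well above background on either array, nor was Adamts13, the protease that trims von Willebrand factor and is made mainly in the liver.

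Adamts7 and Adamts12 cleave the cartilage protein COMP. Adamts12 had signals of 117.7 and 121.9 and a difference of 1.04 with an error of 0.22 at its brighter probe, and 0.74 at its dimmer probe. It was under 2-fold in 4 of 10 other ways of processing. Adamts7, with signals of 442.2 and 225.3, differed by 0.02. Comp itself was lower by 2.53-fold, at signals of 151.9 and 30.1 with an error of 0.31. The signal of 30.1 lies near the floor of 20.1 for the DKO-labelled array, so the Comp fold is uncertain. Of 7 cartilage and bone markers with a probe, 3 were measured. All 3 were lower too, with a median of -1.555, and their part in the Comp difference was not tested.

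The remaining ADAMTS proteases held the lowest and some of the highest differences. Adamts17, mutated in a human syndrome of short stature and lens defects, had signals of 6626 and 1351 at its brighter probe. Its difference was -1.30 with an error of 0.20 (2.47-fold lower), and its dimmer probe, at 319.1 and 63.6, gave -1.34. It was lower by 2-fold or more in 11 of 11 other ways of processing. Keratinocyte markers were lower by a median of -1.67 on the same array, and their part was not tested. Adamts16 went the other way. Its signals were 206.3 and 258.3 and its difference was 1.32 with an error of 0.21 (2.49-fold higher), while a further probe of the gene was not well above background on either array. Adamts18, the closest relative of Adamts16, had signals of 779.8 and 270.0 and differed by -0.54 with an error of 0.21. Adamts19, the closest relative of Adamts17, differed by 0.59 with an error of 0.07 over its repeated spots. Adamts10, which binds fibrillin microfibrils, differed by -0.07 at signals of 518.5 and 247.9. Adamts6, the relative of Adamts10, passed background only on the Rac3-KO array, with a signal of 37.1 against 11.4, too close to the floor for a fold.

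ADAMTS-like proteins share the ancillary domains of ADAMTS proteases but have no catalytic domain, and several bind fibrillin microfibrils. Adamtsl4, which promotes fibrillin deposition, had signals of 2867 and 3823, a difference of 1.41 with an error of 0.20 (2.65-fold higher) that was 1.13 with normexp. Fbn1, the gene of fibrillin-1, was 2.35-fold higher on the same array, while Fbn2, the gene of fibrillin-2, differed by 0.715. Fibroblast markers had a median of 0.70, and their part in these differences was not tested. Adamtsl3 passed background only on the DKO-labelled array, with signals of 10.7 and 29.9, which gave a level higher there by at least 2.54-fold. Its signal error was 0.84, and 29.9 is close to the lowest signals well above background of 23.4 and 20.1, so this fold is uncertain. Adamtsl1 had signals of 955.9 and 650.5 and differed by 0.44. Adamtsl2 had signals of 273.5 and 139.4 and differed by 0.02.

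**Figure D4:**
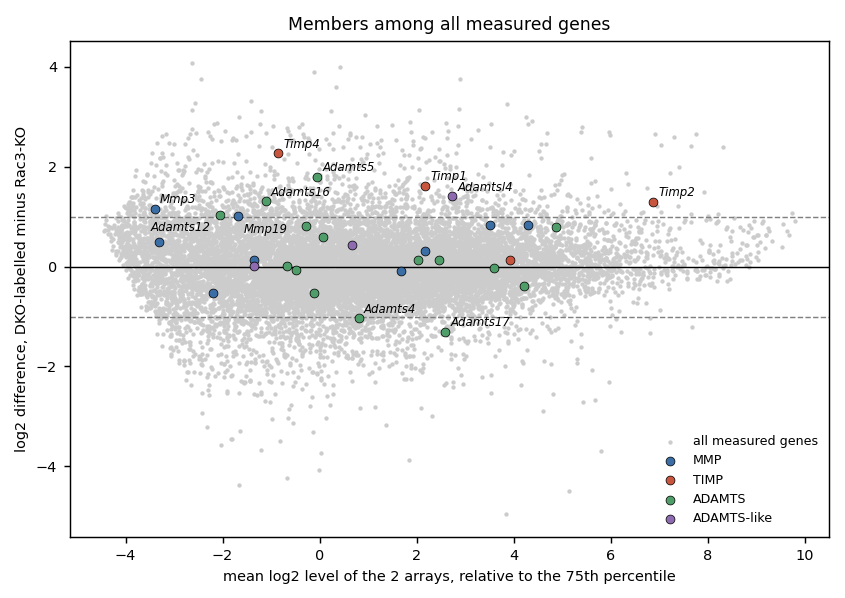
Difference (y axis, log2, DKO-labelled minus Rac3-KO array) against the mean log2 level of both arrays (x axis), each relative to the 75th percentile, for the measured members in colour and all 14145 measured genes in grey. The 9 higher and 2 lower members past 2-fold are named, and they lie at low and high levels alike; on the spike-in scale every point moves by -2.07.

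Regulators and substrates of these enzymes were read beside the members. Of 23 genes that activate, tether or clear MMPs, 20 were measured, 4 were higher by 2-fold or more and 0 lower, and the median difference was 0.70. The higher ones were Thbs2, a matrix protein that limits pericellular Mmp2, at 2.87-fold, the sheddase Adam17 at 2.52-fold, the proprotein convertase Pcsk5 at 2.09-fold and Thbs1 at 2.06-fold. Adam17 had low signals of 65.9 and 83.5. The membrane-anchored inhibitor Reck and the convertase Furin differed by 0.50 and 0.53. Cd44, a surface docking site for MMPs, had the lowest difference at -0.56. Plasminogen (Plg) and alpha-2-macroglobulin (A2m), both made mainly in the liver, were not well above background on either array, nor was Spock1.

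Of 22 matrix substrates 20 were measured, 2 were higher and 4 lower by 2-fold or more, with a median of 0.45. The higher ones were Fbn1 and Col1a1, at 2.35-fold and 2.02-fold. The 3 furthest lower were the epidermal anchoring genes Col17a1 and Lamb3, at 3.601-fold and 2.90-fold, and Comp at 2.53-fold. The Comp fold is uncertain, since its signal of 30.1 with the DKO label lies near the floor. The brain proteoglycan gene Bcan passed background only on the Rac3-KO array, and its level was lower by at least 2.62-fold on the other. Among 10 other metalloendopeptidases 6 were measured. Adam8, a protease of leukocytes, was 2.56-fold higher, and the tolloid protease Tll1 was 3.05-fold lower. Bmp1, which removes the carboxy-terminal propeptides of collagens, differed by 0.68.

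**Figure D5:**
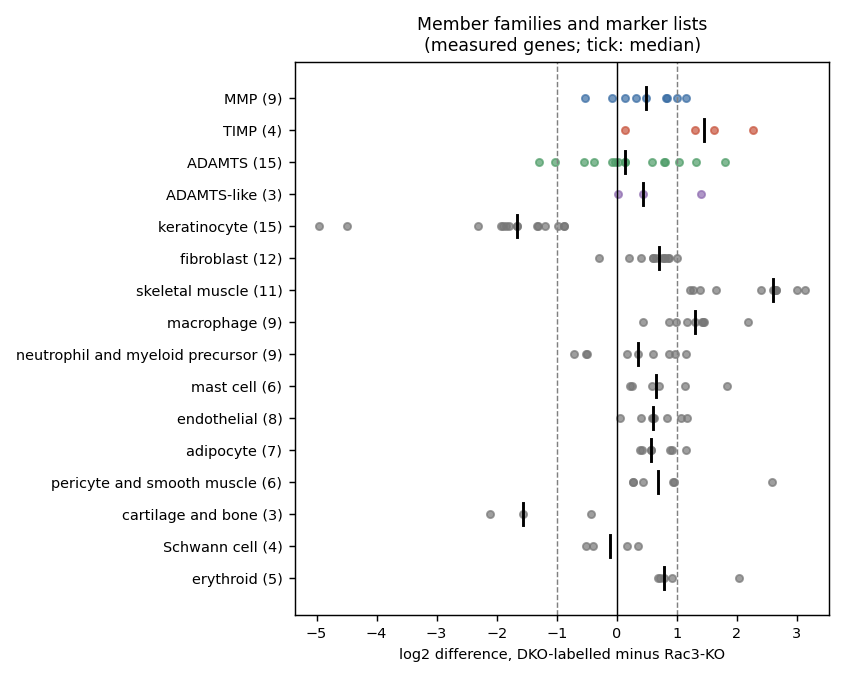
Difference (x axis, log2, DKO-labelled minus Rac3-KO array, relative to the 75th percentile) of each measured gene in the member families and in the marker lists of 12 cell types, with the number measured in parentheses and the median as a black tick. The TIMP median is 1.46 and the MMP, ADAMTS and ADAMTS-like medians are 0.49, 0.13 and 0.44, beside -1.67 for keratinocyte, 0.70 for fibroblast, 1.31 for macrophage and 2.60 for muscle markers; on the spike-in scale every point moves by -2.07.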

How the data were processed

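RNA of 1 Rac3-KO and 1 Rac1/Rac3-DKO sample, grouped by the genotype labels, was hybridised to 1-colour Cy3 Agilent arrays. The deposited scanner files hold spot intensity. Their headers give software version 10.10.1.1 of Feature Extraction, while version 9.1 stands in the submitters' processing notes. The processed signal is the software's corrected intensity, per the file headers, and its correction steps are not given in the sources used here. Outlier marks and well-above-background marks (0 or 1) are those of the scanner software in the deposited files. The authors' deposited values are log2 data. They match log2 of the processed signal, less log2 of 703 and of 354 on the respective arrays, for 100% of 55246 probes compared, within 0.001, and their column medians are -3.72 and -3.62.

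Log2 signals were averaged over a probe's spots without control and outlier spots (155 and 190 left out), and the 75th percentile was subtracted. Probes were named by matching accessions without versions to RefSeq transcripts of GRCm38.p6, used for names and promoter sequences only since the array design refers to mm9. This named 26580 probes and left 29098 unnamed here. Of several probes of a gene, the one brightest on average stood for it. A gene seen on 1 array received an at-least fold, taken from the dim probe's level or the array's lowest detected level, whichever was higher. The at-least fold takes no account of the signal error. The signal error is technical and holds no variation between cultures or animals. Differences past 2-fold were counted, with no test. The scaling and the difference per gene were tested on simulated data built from 1 array. Both simulated arrays had the same background marks, so genes seen on 1 array, at-least folds, outlier spots and the spike-in scale were not tested. Members, role groups and lists were chosen with earlier results of these data known. Every member is named, with fuller values for those measured or seen on 1 array, and genes of the other lists when at least 2-fold apart, up to 3 each way. Thbs1, Reck, Furin, Plg, A2m, Spock1, Col1a2, Col3a1, Bmp1, Rac1, Rac3, Cep295nl, the synapsin genes and the neutrophil genes were named to complete a count or to accompany a member, after their values were seen. The same holds for Fbn2. The raw-signal alternative used the median spot signal and median local background intensity of the deposited files with limma 3.58.1 (normexp, offset 50), Python 3.11.15 and R 4.3.3.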

Additional observations from a re-analysis of the deposited data

How the results depend on the processing

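Across 11 other ways of processing that give a difference (normexp, 4 other scalings, no and stricter filters on dim probes, the mean or median over a gene's probes, the deposited value table and outlier spots kept), all 11 members past 2-fold kept their direction wherever they were measured. Adamts16, Adamts17, Adamts5, Adamtsl4, Timp1, Timp2 and Timp4 stayed past 2-fold in 11 of 11. For Adamts5 this rests on its brighter probe, alone or averaged with the dimmer probe, which by itself differed by 0.55, under 2-fold. Normexp left 1 member at least 2-fold lower in place of 2 and 7 higher in place of 9, against 4.7% and 5.43% of all genes. The count of higher members was lowest, at 6, with loess (6.8% of all genes) and with the stricter filter (6.36%), and highest, at 13 of 49, with no filter (10.5%). The stricter filter gave a median of 0.23 in place of 0.44 over 26 members, since Mmp3, Mmp19 and Adamts12 are among those it removes. Thresholds of 1.5-fold and 3-fold gave 14 (45.2%) and 3 (9.68%) members higher, against 18.2% and 2.29% of all genes, and 2 (6.45%) and 0 lower, against 16.5% and 2.23%. The spike-in scale, added after the data were seen, gave 0 higher, 24 lower and a median of -1.64, against 93.3% lower and a median of -2.08 over all genes, and turned Adamts12 to -1.03, Adamts16 to -0.76, Adamts5 to -0.27, Adamtsl4 to -0.67, Mmp19 to -1.06, Mmp3 to -0.91, Timp1 to -0.45 and Timp2 to -0.77; this follows from a shift of -2.07 for every gene. Over those 11, 326 member differences moved by no more than their signal error and 10 by more. Many of the 326 could hardly move. The filters keep or drop a value without changing it, and kept outlier spots shift it only slightly. For a gene with 1 probe the mean and median are that probe, and the deposited values are the same processed signal. Only normexp and the 4 other scalings could move such a gene. No paired analysis was possible because each genotype has 1 array, and no array could be left out. Signal over background limits Mmp3, Mmp8, Mmp28, Adamts6 and Adamtsl3.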
